A study of Mus musculus with 12 samples.

Results

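The genes described here are 34 genes of cholesterol and fatty acid synthesis, chosen by their function and by symbol. Rows were found for 33 of the 34 among 20325 genes, and the expression of Hmgcs1 was not analysed here. All 33 passed the filter on low counts, as did 13936 genes in all. The study measured polyadenylated RNA of mouse embryonic fibroblasts (MEFs), either as such or 4 days into reprogramming towards pluripotency (day 4), in 12 libraries that form 6 groups of 2. The cells of all groups carried floxed alleles of AF10 (the gene Mllt10, whose product works with the histone methyltransferase DOT1L), an OSKM cassette of reprogramming factors and rtTA, which switches the cassette on with doxycycline. MEF_fl had received an empty adenovirus, and MEF_creAF10 an adenovirus with Cre recombinase to delete AF10. On day 4, fl cells (AF10 fl/fl) were grown with doxycycline in DMSO (Day4_fl_DMSO) or in 5 µM SGC0946, a DOT1L inhibitor (Day4_fl_SGC). AF10-deleted cells (AF10 -/-) were treated alike (Day4_creAF10_DMSO and Day4_creAF10_SGC). Reprogramming started 2 days after infection, with 2 µg/mL doxycycline. Cre virus was not given to cells lacking floxed alleles, so deletion and virus cannot be told apart. Day 4 cells grew on DR4 feeder MEFs in a stem cell medium that held leukemia inhibitory factor and more serum than the medium of the MEFs. Medium, feeders, doxycycline and time therefore cannot be told apart in a comparison of day 4 with MEFs.

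Animal cells make cholesterol from acetyl-CoA, first through mevalonate to farnesyl diphosphate, then through squalene and lanosterol to the sterol. The transcription factors SREBP-1 (Srebf1) and SREBP-2 (Srebf2) switch on these genes and those of fatty acid synthesis. When sterols are scarce, Scap escorts the precursors of both factors to the Golgi, where they are cleaved, and when sterols are plentiful Insig proteins hold Scap in the endoplasmic reticulum. Fibroblasts in culture take cholesterol from serum lipoproteins and make their own when that supply is low.

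Promoters are shown because most of these genes moved together. RefSeq's table of mouse promoters (build GRCm38.p6, not the build mm9 of the counts) held 27 of the 34 symbols and 36 start sites for them. It did not hold Fdps, Fdft1, Sqle, Scd1, Scd2, Fads1 and Stard4. The 5 promoters below are the 250 bases before the start site, 5′ to 3′ on the gene's own strand. They belong to an early enzyme of the mevalonate branch (Mvk), the sterol enzyme with the largest fall in AF10-deleted cells (Hsd17b7), fatty acid synthase (Fasn), the sterol enzyme that did not fall (Ebp), and the gene called in most comparisons (Elovl6). Capitals mark CCAAT, or ATTGG where the letters lie on the other strand. The intervals are chr5:114444019-114444268 (plus strand), chr1:169969206-169969455 (minus), chr11:120824548-120824797 (minus), chrX:8193513-8193762 (minus) and chr3:129532136-129532385 (plus).
Mvk: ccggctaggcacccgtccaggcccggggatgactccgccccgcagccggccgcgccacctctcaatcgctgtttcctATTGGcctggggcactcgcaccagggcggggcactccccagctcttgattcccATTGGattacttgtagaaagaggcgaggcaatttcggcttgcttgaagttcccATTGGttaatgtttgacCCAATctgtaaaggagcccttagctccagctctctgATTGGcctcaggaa
Hsd17b7: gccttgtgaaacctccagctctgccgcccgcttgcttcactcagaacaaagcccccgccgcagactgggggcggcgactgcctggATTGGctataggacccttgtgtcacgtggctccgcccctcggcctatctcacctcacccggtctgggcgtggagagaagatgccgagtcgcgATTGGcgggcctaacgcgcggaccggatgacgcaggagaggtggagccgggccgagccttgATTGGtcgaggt
Fasn: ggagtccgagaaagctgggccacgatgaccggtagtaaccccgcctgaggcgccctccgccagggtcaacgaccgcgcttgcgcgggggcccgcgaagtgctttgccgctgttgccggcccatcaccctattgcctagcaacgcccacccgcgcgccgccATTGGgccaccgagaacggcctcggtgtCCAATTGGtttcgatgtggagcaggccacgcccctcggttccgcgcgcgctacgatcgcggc
Ebp: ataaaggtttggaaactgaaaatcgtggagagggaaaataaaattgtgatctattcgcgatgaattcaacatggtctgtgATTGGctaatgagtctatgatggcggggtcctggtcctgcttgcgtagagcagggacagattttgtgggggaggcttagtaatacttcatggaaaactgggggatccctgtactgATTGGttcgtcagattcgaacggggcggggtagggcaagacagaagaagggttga
Elovl6: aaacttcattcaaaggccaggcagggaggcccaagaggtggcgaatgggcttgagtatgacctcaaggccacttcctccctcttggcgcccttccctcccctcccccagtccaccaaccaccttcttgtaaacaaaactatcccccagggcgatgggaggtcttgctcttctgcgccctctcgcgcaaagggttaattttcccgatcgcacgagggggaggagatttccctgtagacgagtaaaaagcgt

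Mvk held 5 copies of CCAAT on either strand, Hsd17b7 and Fasn 3 each, Ebp 2 and Elovl6 0. In Fasn 2 of the 3 copies, on opposite strands, share bases. At least 1 copy stood in the window of 21 of the 27 genes (77.8%), against 37.5% of all 27025 genes in the table and 40.6% of the 9870 of them that were tested here. With 1 start site per gene the shares were 70.4%, 34.2% and 36.1%. The GC box GGGCGG also stood in 21 of 27, against 35.4% of all genes and 63.3% of the tested ones. With 1 start site per gene its shares were 70.4%, 32.7% and 58.2%. The E box CACGTG stood in 5 of 27 (18.5%), against 6.86% and 9.83%. At 1 start site per gene this fell to 3 of 27 (11.1%), against 5.93% and 8.21%. The classic sterol response element, searched as TCACNCCAC, stood in 1 of 27 (3.7%), against 1.22% and 1.25%. That gene was Hmgcs1, whose expression was not analysed here. All motifs were searched on both strands, and sites with other letters were not counted. Ebp, which moved against the other sterol enzymes, and Hsd17b7, which moved with them, both held CCAAT and GGGCGG. The part of any of these motifs in the changes below was not tested.

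The summed expected counts of a library ran from 14602536 to 22800753, and the lowest count of any of the 33 genes in any library was 81. Mllt10 itself, measured over the whole transcript, was kept at 72.1% to 82.1% of its level in fl cells after Cre, so its total does not show how complete the deletion was. Levels are given as CPM, counts relative to the TMM-scaled size of each library. Of 12 fibroblast markers, all were above 1 CPM in every group. Their summed level was 49643 to 67227 CPM in MEFs and 21084 to 22855 on day 4. Vim went the other way, at 4347 to 5327 CPM in MEFs and 7550 to 8686 on day 4. Thy1 on day 4 (213 to 253 CPM) lay within its MEF range (111 to 448). The other fibroblast markers were lower in every day 4 library than in any MEF library. Epithelial markers (5 genes, led on day 4 by Cdh1) summed to between 2.61 and 5.22 CPM in MEFs and between 23.1 and 88.8 on day 4. The pluripotent cell markers (6 genes) summed to between 0.178 and 1.08 CPM in MEFs and between 53.9 and 71.9 on day 4, nearly all of it L1td1, with Zfp42, Esrrb and Dppa5a at or near 0. Of the cell types known for lipid synthesis, hepatocyte markers (5 genes) summed to 0.33 to 1.58 CPM, with Ttr and Afp at 0 in all libraries. Adipocyte markers (9 genes) summed to 43.2 to 72.8 CPM in MEFs and 38.0 to 76.0 on day 4, and Lep, Retn, Plin1 and Cidec were at or near 0. Macrophage markers (8 genes) summed to 5.3 to 12.8 CPM in MEFs and 49.4 to 73.3 on day 4, most of it Laptm5. In bulk RNA, fewer cells of a type and less RNA per cell cannot be told apart, nor can RNA of the feeder MEFs and of the reprogrammed cells. The part of these cell types in the results below was not tested.

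On day 4 in DMSO the synthesis genes were lower than in MEFs almost throughout. Of the 33 genes, 28 fell and 0 rose in fl cells (edgeR, Benjamini-Hochberg adjusted p under 0.05, the rule for every call below unless the paired fit or DESeq2 is named), and 27 fell and 1 rose with AF10 deleted. Of all 13936 genes tested, 26.3% fell and 25.7% rose in fl cells, and 27.5% fell and 27.5% rose in AF10-deleted cells. The median log2 change of the 33 genes was -0.94 in fl cells and -1.01 with AF10 deleted, beside 0.01 and 0.02 over all genes tested. In 28 of the 33, every one of the 8 day 4 libraries, with or without SGC0946, lay below every one of the 4 MEF libraries, as did 26.9% of all genes tested. Only Ebp among the 33 had every day 4 library above every MEF library, which held for 27.0% of all genes. The remaining 4, Pmvk, Acacb, Scd1 and Fads1, overlapped. With DESeq2, 28 genes fell and 1 rose in fl cells, beside 3520 and 3282 of the 17598 genes in its fit. In AF10-deleted cells 27 fell and 1 rose, beside 3726 and 3476. Libraries with the same replicate number share a source of cells, and the fall was larger in the first source. The median change within replicate 1 was -1.21 in fl cells and -1.26 with AF10 deleted, and within replicate 2 it was -0.66 and -0.73. Of the 33, 30 were lower in both sources in fl cells and 28 with AF10 deleted, beside 41.8% and 41.6% of all genes.

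**Figure D1:**
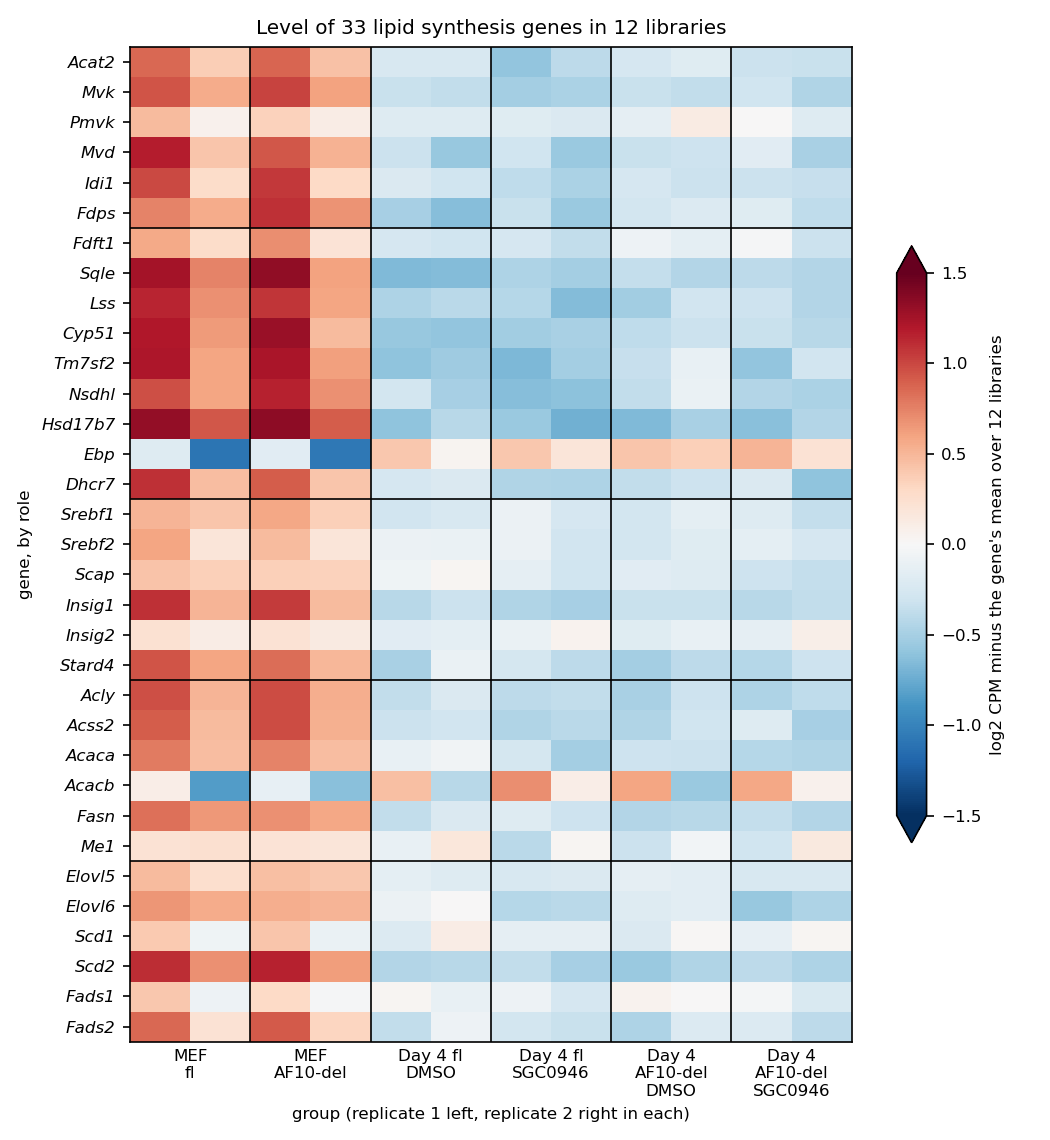
Each row is one of the 33 genes, grouped by role from the mevalonate branch at the top to desaturases at the bottom, and each column one of the 12 libraries; colour gives log2 CPM minus the gene's mean over the 12 libraries. MEF columns are red and day 4 columns blue for most rows, Ebp is reversed, and the replicate 1 column of each MEF group is deeper red than replicate 2 in most rows.

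In the mevalonate branch, which runs from acetyl-CoA to farnesyl diphosphate, all 6 genes measured fell in fl cells, with a median log2 change of -1.03 and a range of -1.28 to -0.48. In AF10-deleted cells 5 of 6 fell. Acat2, which joins acetyl-CoA units, had 105.5 and 74.7 CPM in MEF_fl and 106 and 78.3 in MEF_creAF10, against 49.2 and 49.1 in Day4_fl_DMSO, 48.6 and 50.9 in Day4_creAF10_DMSO and 38.4 to 46.3 in the 4 SGC0946 libraries. Mvk, mevalonate kinase, had 56.7 and 43.3 CPM in MEF_fl and 59.5 and 44.7 in MEF_creAF10, against 23.3 and 22.7 in Day4_fl_DMSO, 23.3 and 22.7 in Day4_creAF10_DMSO and 20.7 to 23.9 in the 4 SGC0946 libraries. Mvd, which makes isopentenyl diphosphate, had 66.5 and 39.4 CPM in MEF_fl and 56.0 and 42.4 in MEF_creAF10, against 23.6 and 19.9 in Day4_fl_DMSO, 23.4 and 23.7 in Day4_creAF10_DMSO and 20.0 to 26.1 in the 4 SGC0946 libraries. In all 3 the highest day 4 library stood below the lowest MEF library. Acat2 fell by 0.88 on the log2 scale in fl cells and fell by 0.89 with AF10 deleted, Mvk fell by 1.12 on the log2 scale in fl cells and fell by 1.18 with AF10 deleted, and Mvd fell by 1.28 on the log2 scale in fl cells and fell by 1.06 with AF10 deleted. Fdps, farnesyl diphosphate synthase, had 151 and 133 CPM in MEF_fl, 193.5 and 144 in MEF_creAF10, 64.0 and 58.3 in Day4_fl_DMSO, 74.9 and 78.2 in Day4_creAF10_DMSO, 71.5 and 61.5 in Day4_fl_SGC and 79.9 and 69.6 in Day4_creAF10_SGC. It fell by 1.22 ± 0.14 (SE) on the log2 scale in fl cells (edgeR, adjusted p = 0.000103) and fell by 1.14 ± 0.14 in AF10-deleted cells (adjusted p = 0.000141). Idi1, the isomerase before it, had 192 and 117.5 CPM in MEF_fl and 201 and 119 in MEF_creAF10, against 83.0 and 78.7 in Day4_fl_DMSO, 81.1 and 77.6 in Day4_creAF10_DMSO and 69.5 to 77.2 in the 4 SGC0946 libraries. The 2 MEF replicates of Idi1 differed more than those of Fdps, and it fell by 0.94 ± 0.26 (SE) on the log2 scale in fl cells (edgeR, adjusted p = 0.0168) and fell by 1.01 ± 0.26 in AF10-deleted cells (adjusted p = 0.0116). That call was lost without MEF replicate 1 or either day 4 DMSO library of the groups compared, where the adjusted p reached 0.11 in fl cells and 0.0651 with AF10 deleted. Pmvk, phosphomevalonate kinase, had 34.9 and 26.3 CPM in MEF_fl and 31.8 and 27.0 in MEF_creAF10, against 21.9 and 21.9 in Day4_fl_DMSO, 22.9 and 27.2 in Day4_creAF10_DMSO and 21.5 to 25.1 in the 4 SGC0946 libraries. Its change was the smallest of the branch, -0.48 ± 0.15 in fl cells (adjusted p = 0.0222) and -0.23 ± 0.15 in AF10-deleted cells (adjusted p = 0.223). In fl cells the call was lost without MEF_fl replicate 1 or either Day4_fl_DMSO library, with an adjusted p of up to 0.193.

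In the branch from squalene to cholesterol 8 of 9 genes fell in both genotypes, with median log2 changes of -1.37 in fl cells and -1.17 with AF10 deleted. The largest fall of the 33 genes lay here in each genotype, Sqle in fl cells and Hsd17b7 in AF10-deleted cells. Sqle, squalene epoxidase, an oxygen-requiring and rate-limiting step, had 209.7 and 147.5 CPM in MEF_fl, 222 and 134 in MEF_creAF10, 55.8 and 56.2 in Day4_fl_DMSO, 69.1 and 65.0 in Day4_creAF10_DMSO, 63.9 and 61.9 in Day4_fl_SGC and 67.5 and 65.3 in Day4_creAF10_SGC. Its lowest MEF library, at 134 CPM, stood above its highest day 4 library, at 69.1 CPM. Sqle fell by 1.67 ± 0.23 (SE) on the log2 scale in fl cells (edgeR, adjusted p = 0.000389) and fell by 1.41 ± 0.23 in AF10-deleted cells (adjusted p = 0.00088). Its day 4 level in fl cells was 31.3% of that in fl MEFs. Hsd17b7, a 3-ketosteroid reductase that acts late in the removal of the sterol's methyl groups, had 87.5 and 66.9 CPM in MEF_fl and 88.5 and 65.6 in MEF_creAF10, against 23.1 and 26.3 in Day4_fl_DMSO, 22.1 and 24.9 in Day4_creAF10_DMSO and 21.2 to 25.8 in the 4 SGC0946 libraries. It fell by 1.64 ± 0.17 (SE) on the log2 scale in fl cells (edgeR, adjusted p = 4.94e-05) and fell by 1.71 ± 0.17 in AF10-deleted cells (adjusted p = 3.71e-05). Its day 4 levels lay within 21.2 to 26.3 CPM in all 4 groups. Cyp51, the lanosterol demethylase, had 282 and 190.3 CPM in MEF_fl, 300.0 and 170.5 in MEF_creAF10, 82.4 and 81.0 in Day4_fl_DMSO, 94.1 and 97.7 in Day4_creAF10_DMSO, 85.1 and 87.2 in Day4_fl_SGC and 96.9 and 91.7 in Day4_creAF10_SGC. Cyp51 fell by 1.53 ± 0.25 (SE) on the log2 scale in fl cells (edgeR, adjusted p = 0.0012) and fell by 1.29 ± 0.25 in AF10-deleted cells (adjusted p = 0.00262). Tm7sf2, a sterol reductase, had 27.2 and 17.6 CPM in MEF_fl and 27.4 and 17.9 in MEF_creAF10, against 7.7 and 8.11 in Day4_fl_DMSO, 9.18 and 10.8 in Day4_creAF10_DMSO and 7.32 to 9.57 in the 4 SGC0946 libraries. It fell by 1.50 on the log2 scale in fl cells and fell by 1.17 with AF10 deleted. Lss, which closes lanosterol's rings, had 102 and 73.7 CPM in MEF_fl and 96.7 and 69.4 in MEF_creAF10, against 33.3 and 34.7 in Day4_fl_DMSO, 32.1 and 37.6 in Day4_creAF10_DMSO and 29.4 to 37.2 in the 4 SGC0946 libraries, and it fell by 1.37 on the log2 scale in fl cells and fell by 1.25 with AF10 deleted. Nsdhl, which works with Hsd17b7 in demethylation, had 68.2 and 52.5 CPM in MEF_fl and 77.9 and 56.2 in MEF_creAF10, against 28.8 and 24.8 in Day4_fl_DMSO, 27.1 and 32.7 in Day4_creAF10_DMSO and 22.4 to 25.7 in the 4 SGC0946 libraries. Nsdhl fell by 1.17 on the log2 scale in fl cells and fell by 1.16 with AF10 deleted. Within the branch Sqle and Hsd17b7 had the 2 largest falls in both genotypes. Dhcr7, the last reductase on one route to cholesterol, had 70.6 and 45.3 CPM in MEF_fl and 62.0 and 44.1 in MEF_creAF10, against 27.7 and 28.4 in Day4_fl_DMSO, 25.6 and 26.5 in Day4_creAF10_DMSO and 21.7 to 28.3 in the 4 SGC0946 libraries, and it fell by 1.05 on the log2 scale in fl cells and fell by 1.02 with AF10 deleted. Fdft1, squalene synthase at the branch point, had 142 and 116 CPM in MEF_fl and 155 and 111 in MEF_creAF10, against 80.6 and 78.2 in Day4_fl_DMSO, 91.0 and 87.1 in Day4_creAF10_DMSO and 74.3 to 95.0 in the 4 SGC0946 libraries. Its fall, 0.70 in fl cells and 0.58 with AF10 deleted on the log2 scale, was the smallest among the 8. In AF10-deleted cells the Fdft1 call was lost without MEF_creAF10 replicate 1 or either Day4_creAF10_DMSO library, with an adjusted p of up to 0.0995.

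Ebp, the sterol isomerase of the same branch, went the other way. It had 37.1 and 19.9 CPM in MEF_fl, 37.9 and 20.2 in MEF_creAF10, 56.4 and 43.7 in Day4_fl_DMSO, 56.8 and 54.6 in Day4_creAF10_DMSO, 56.1 and 48.3 in Day4_fl_SGC and 60.7 and 49.5 in Day4_creAF10_SGC. The 4 MEF libraries were at 19.9 to 37.9 CPM and the 8 day 4 libraries at 43.7 to 60.7. Its log2 change was 0.81 ± 0.34 in fl cells (edgeR, adjusted p = 0.0767) and 0.95 ± 0.34 in AF10-deleted cells (adjusted p = 0.0436). With the replicate number as a block the adjusted p was 0.00787 in fl cells and 0.00306 with AF10 deleted, and with DESeq2 0.0234 and 0.00704. The call in AF10-deleted cells was lost in 9 of the 12 fits that left out 1 library (all but those without MEF_fl replicate 1 or 2 or without MEF_creAF10 replicate 1), with a log2 change of 0.56 to 1.46 and an adjusted p of up to 0.214. It was also lost with no filter on low counts (adjusted p = 0.0694). The Ebp change was 0.60 on the log2 scale in replicate 1 and 1.14 in replicate 2 in fl cells, against 0.58 and 1.43 with AF10 deleted.

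**Figure D2:**
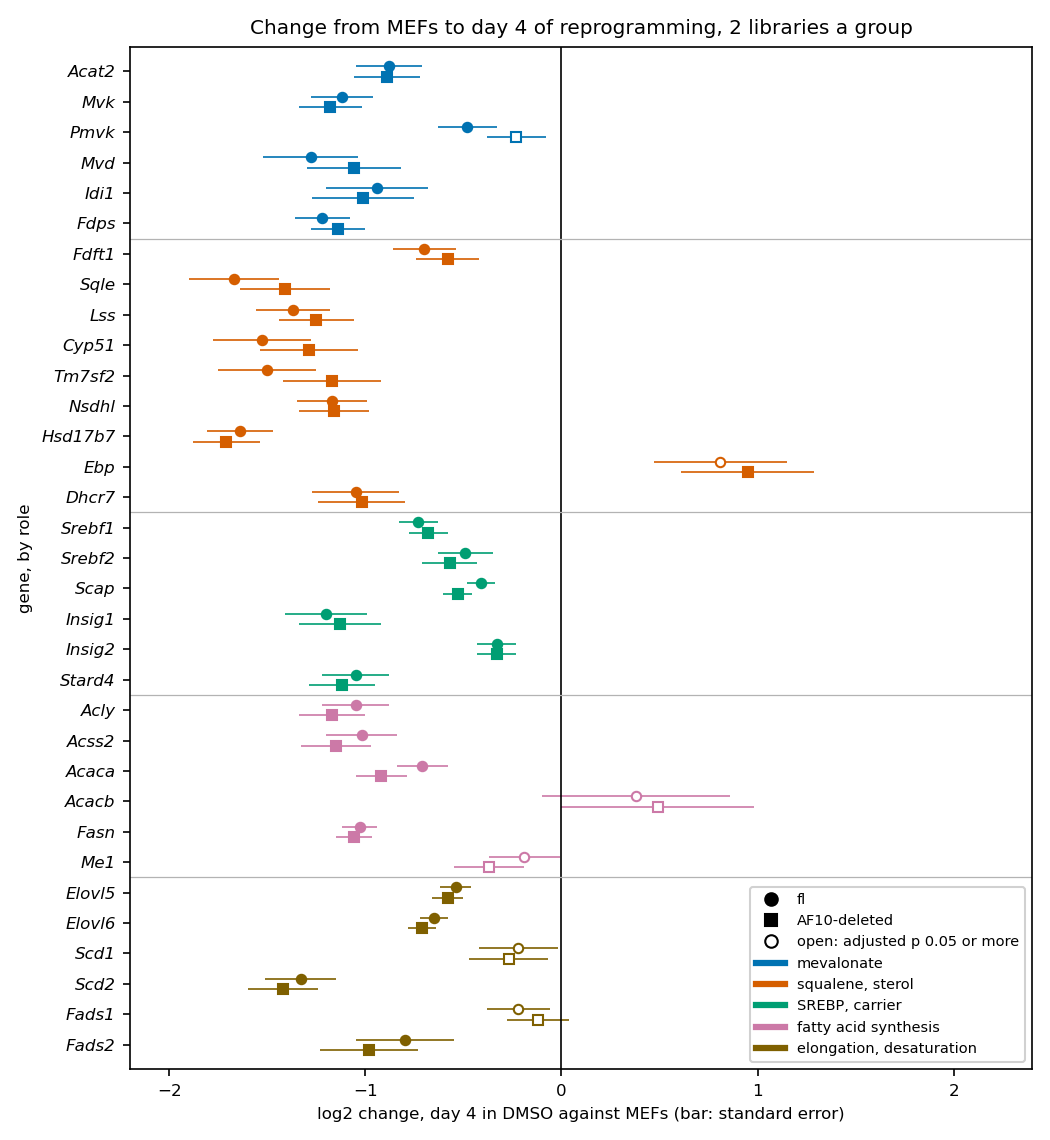
Log2 change from MEFs to day 4 in DMSO for each of the 33 genes, with circles for fl cells, squares for AF10-deleted cells, bars for the standard error, colour for the role, and open symbols where the adjusted p was 0.05 or more. In fl cells Sqle, Hsd17b7 and Cyp51 lie farthest to the left; Ebp and Acacb lie to the right of 0, and the symbols of both genotypes stand close together for most genes.

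All 6 genes of the SREBP regulators and the sterol carrier fell in both genotypes, with median changes of -0.61 and -0.62 on the log2 scale, smaller than in the mevalonate and sterol branches. Insig1, the Insig protein that SREBP itself induces, had 259 and 172 CPM in MEF_fl and 251 and 169 in MEF_creAF10, against 90.5 and 97.0 in Day4_fl_DMSO, 96.3 and 96.0 in Day4_creAF10_DMSO and 85.7 to 93.4 in the 4 SGC0946 libraries. Insig2, its paralog, had 42.9 and 39.6 CPM in MEF_fl and 42.6 and 40.3 in MEF_creAF10, against 32.6 and 33.1 in Day4_fl_DMSO, 32.2 and 33.8 in Day4_creAF10_DMSO and 33.3 to 38.9 in the 4 SGC0946 libraries. The pair differed in size: Insig1 fell by 1.20 ± 0.21 in fl cells on the log2 scale and Insig2 fell by 0.33 ± 0.1. The Insig2 call was lost without MEF replicate 1 or either day 4 DMSO library in both genotypes, with an adjusted p of up to 0.117 in fl cells and 0.103 with AF10 deleted. Stard4, a carrier that moves cholesterol between membranes, had 47.7 and 37.4 CPM in MEF_fl and 44.5 and 35.0 in MEF_creAF10, against 17.8 and 23.1 in Day4_fl_DMSO, 17.5 and 19.0 in Day4_creAF10_DMSO and 18.4 to 20.7 in the 4 SGC0946 libraries, and it fell by 1.05 on the log2 scale in fl cells and fell by 1.12 with AF10 deleted. Srebf1 had 136.5 and 128 CPM in MEF_fl and 143 and 123 in MEF_creAF10, against 78.5 and 81.1 in Day4_fl_DMSO, 79.5 and 86.6 in Day4_creAF10_DMSO and 74.7 to 90.3 in the 4 SGC0946 libraries. Srebf2 had 282 and 212.5 CPM in MEF_fl and 262 and 213 in MEF_creAF10, against 176 and 175 in Day4_fl_DMSO, 155 and 165 in Day4_creAF10_DMSO and 154 to 176 in the 4 SGC0946 libraries. Both factors fell by less than the median of the 33 genes. Srebf1 fell by 0.73 on the log2 scale in fl cells and fell by 0.68 with AF10 deleted, and Srebf2 fell by 0.49 on the log2 scale in fl cells and fell by 0.57 with AF10 deleted. In fl cells the Srebf2 call was lost without MEF_fl replicate 1 or either Day4_fl_DMSO library, with an adjusted p of up to 0.119. Scap had 112 and 107 CPM in MEF_fl, 106 and 106 in MEF_creAF10, 79.8 and 85.0 in Day4_fl_DMSO, 74.3 and 73.1 in Day4_creAF10_DMSO, 75.9 and 68.0 in Day4_fl_SGC and 67.4 and 65.2 in Day4_creAF10_SGC. Its replicates lay close together, and it fell by 0.41 ± 0.073 (SE) on the log2 scale in fl cells (edgeR, adjusted p = 0.00123) and fell by 0.53 ± 0.074 in AF10-deleted cells (adjusted p = 0.000247).

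Among the 6 genes that supply and use malonyl-CoA, 4 fell in both genotypes, with median changes of -0.86 and -0.99 on the log2 scale. Fasn, fatty acid synthase, had 451 and 398 CPM in MEF_fl and 407.5 and 381 in MEF_creAF10, against 197 and 219 in Day4_fl_DMSO, 188 and 189.9 in Day4_creAF10_DMSO and 188 to 222 in the 4 SGC0946 libraries. Fasn fell by 1.03 ± 0.091 (SE) on the log2 scale in fl cells (edgeR, adjusted p = 1.7e-05) and fell by 1.06 ± 0.092 in AF10-deleted cells (adjusted p = 1.34e-05), and in both sources of cells its day 4 level was below its MEF level by 0.86 or more on the log2 scale. Acly, which makes cytosolic acetyl-CoA from citrate, had 451 and 327 CPM in MEF_fl and 454 and 336 in MEF_creAF10, against 178 and 197.5 in Day4_fl_DMSO, 164 and 186 in Day4_creAF10_DMSO and 167 to 178 in the 4 SGC0946 libraries. Acss2, which makes it from acetate, had 49.3 and 36.3 CPM in MEF_fl and 51.7 and 38.0 in MEF_creAF10, against 20.9 and 21.5 in Day4_fl_DMSO, 19.1 and 21.3 in Day4_creAF10_DMSO and 18.6 to 22.9 in the 4 SGC0946 libraries. Both routes to acetyl-CoA were lower: Acly fell by 1.05 on the log2 scale in fl cells and fell by 1.17 with AF10 deleted, and Acss2 fell by 1.02 on the log2 scale in fl cells and fell by 1.15 with AF10 deleted. Acaca, the acetyl-CoA carboxylase of fatty acid synthesis, had 159 and 128 CPM in MEF_fl, 155 and 128 in MEF_creAF10, 85.8 and 89.7 in Day4_fl_DMSO, 75.1 and 74.0 in Day4_creAF10_DMSO, 77.2 and 65.4 in Day4_fl_SGC and 68.9 and 68.1 in Day4_creAF10_SGC. It fell by 0.71 ± 0.13 (SE) on the log2 scale in fl cells (edgeR, adjusted p = 0.00114) and fell by 0.92 ± 0.13 in AF10-deleted cells (adjusted p = 0.00022). Acacb, the carboxylase at the mitochondrion that restrains fatty acid oxidation, had 9.43 and 4.92 CPM in MEF_fl and 8.08 and 5.71 in MEF_creAF10, against 12.1 and 6.6 in Day4_fl_DMSO, 13.3 and 5.98 in Day4_creAF10_DMSO and 9.25 to 14.3 in the 4 SGC0946 libraries. Replicate 1 was above replicate 2 in all 6 groups, and the groups overlapped. The Acacb change was 0.38 ± 0.48 in fl cells (adjusted p = 0.542) and 0.49 ± 0.49 in AF10-deleted cells (adjusted p = 0.423). It was -0.20 without Day4_creAF10_DMSO replicate 1, and -0.12 in fl cells without Day4_fl_DMSO replicate 1, so its direction was not settled. Me1, malic enzyme, a source of NADPH, had 113 and 115 CPM in MEF_fl, 112 and 111 in MEF_creAF10, 90.4 and 109.5 in Day4_fl_DMSO, 78.0 and 94.4 in Day4_creAF10_DMSO, 73.5 and 99.4 in Day4_fl_SGC and 79.0 and 108 in Day4_creAF10_SGC. Its change was -0.19 ± 0.18 in fl cells (adjusted p = 0.405) and -0.37 ± 0.18 in AF10-deleted cells (adjusted p = 0.108; 0.0116 with the replicate block).

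Elongases and desaturases split: 4 of 6 fell in each genotype, and Scd1 and Fads1 did not pass the test. Scd2, a stearoyl-CoA desaturase and the most abundant of the 33 per length in MEF_fl and Day4_fl_DMSO, had 1471 and 1099.5 CPM in MEF_fl and 1525 and 1056 in MEF_creAF10, against 505 and 514 in Day4_fl_DMSO, 465.5 and 499.7 in Day4_creAF10_DMSO and 483 to 530.4 in the 4 SGC0946 libraries. It fell by 1.33 ± 0.18 (SE) on the log2 scale in fl cells (edgeR, adjusted p = 0.000216) and fell by 1.42 ± 0.18 in AF10-deleted cells (adjusted p = 0.000136). Scd1, its paralog, had 283 and 206 CPM in MEF_fl and 289 and 201 in MEF_creAF10, against 187 and 233.5 in Day4_fl_DMSO, 186 and 218.5 in Day4_creAF10_DMSO and 196 to 221 in the 4 SGC0946 libraries. The Scd1 change was -0.22 ± 0.2 in fl cells (adjusted p = 0.383) and -0.27 ± 0.2 in AF10-deleted cells (adjusted p = 0.272). In fl cells it went down in replicate 1 (-0.60) and up in replicate 2 (0.18). Without MEF replicate 1 the Scd1 change was 0.03 in fl cells and 0.01 with AF10 deleted. Reads that fit both genes were divided between them by RSEM, so their separate values are uncertain. Fads2, the desaturase that starts the making of long polyunsaturated fatty acids, had 107 and 68.4 CPM in MEF_fl and 111 and 73.1 in MEF_creAF10, against 45.3 and 55.7 in Day4_fl_DMSO, 42.5 and 51.1 in Day4_creAF10_DMSO and 44.8 to 50.9 in the 4 SGC0946 libraries. Fads1, the one after it, had 247 and 176.5 CPM in MEF_fl and 229 and 185 in MEF_creAF10, against 191 and 172 in Day4_fl_DMSO, 193 and 188 in Day4_creAF10_DMSO and 157 to 183.5 in the 4 SGC0946 libraries. Fads2 fell by 0.80 ± 0.25 (SE) on the log2 scale in fl cells (edgeR, adjusted p = 0.0241) and fell by 0.98 ± 0.25 in AF10-deleted cells (adjusted p = 0.00938), and Fads1 changed by -0.22 ± 0.16 (adjusted p = 0.271) and -0.12 ± 0.16 (adjusted p = 0.544), or 0.04 in either genotype without MEF replicate 1. The Fads2 call was lost without replicate 1 of the MEFs or of the day 4 DMSO cells in both genotypes, with an adjusted p of up to 0.167 in fl cells and 0.0662 with AF10 deleted. Elovl6, which lengthens palmitate to stearate, had 142 and 132 CPM in MEF_fl, 131 and 128 in MEF_creAF10, 84.7 and 90.2 in Day4_fl_DMSO, 78.2 and 80.5 in Day4_creAF10_DMSO, 66.9 and 67.9 in Day4_fl_SGC and 60.6 and 65.2 in Day4_creAF10_SGC. It fell by 0.65 ± 0.071 (SE) on the log2 scale in fl cells (edgeR, adjusted p = 6.31e-05) and fell by 0.71 ± 0.071 in AF10-deleted cells (adjusted p = 3.45e-05). Elovl5, which lengthens polyunsaturated chains, had 137 and 118 CPM in MEF_fl and 136 and 131 in MEF_creAF10, against 89.8 and 86.4 in Day4_fl_DMSO, 89.9 and 88.6 in Day4_creAF10_DMSO and 83.6 to 85.1 in the 4 SGC0946 libraries, and it fell by 0.54 on the log2 scale in fl cells and fell by 0.58 with AF10 deleted.

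Compared per transcript length, with the deposited TPM values, the order of the genes also changed. In MEF_fl the highest were Scd2 at 512 ± 93.6 TPM (SD, n = 2) and Fdps at 262 ± 17.2, whose libraries did not overlap with each other's. Acly (192 ± 39.1), Insig1 (178.5 ± 47.2) and Sqle (142.5 ± 32.0) followed, and neighbours in that order overlapped. Acacb was last at 1.83 ± 0.771 TPM. In Day4_fl_DMSO the order began with Scd2 at 192 ± 7.18, Fads1 at 108.5 ± 5.06, Fdps at 106 ± 4.35, Scd1 at 89.6 ± 16.3 and Acly at 87.8 ± 8.62 TPM. Ebp moved from rank 28 to rank 11, and Hsd17b7 from 27 to 32. Sqle moved from rank 5 to 16. With these TPM values the mean on day 4 was below that in MEFs for 31 of the 33 genes in each genotype, as with CPM.

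Other genes around these pathways, from lists drawn up for this tissue, changed unevenly from MEFs to day 4 in fl cells. Beside the counts below, 26.3% of all genes tested fell and 25.7% rose. Of 7 other sterol synthesis genes 3 fell and 0 rose. Among them were Sc4mol, a sterol methyl oxidase (132 to 39.0 CPM, log2 change -1.76), and Sc5d, the sterol desaturase (66.0 to 28.8 CPM, -1.20). Of 9 genes that process or restrain SREBP, 6 fell and 0 rose, among them Rnf139, a ubiquitin ligase of the endoplasmic reticulum (-0.73), and Mbtps1, the protease that first cuts SREBP (-0.40). Of 23 other genes of fatty acid synthesis and elongation 7 fell and 2 rose. Mid1ip1, a partner of acetyl-CoA carboxylase, fell by 1.08 on the log2 scale and Elovl4, which builds very long chains, by 1.35, while Elovl7 rose by 1.34. NADPH supply went in both directions among 7 genes. G6pdx (0.48), Pgd (0.52) and Tkt (0.58) of the pentose phosphate pathway rose, from 99.3 to 138, 139 to 198 and 168 to 251 CPM, and Idh1 fell by 0.49. All 4 were also called in AF10-deleted cells.

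Sterol export and trafficking genes, 13 in number, held 6 that fell and 1 that rose. Npc2, which hands cholesterol out of lysosomes, fell from 665 to 269 CPM (log2 change -1.30 ± 0.08, adjusted p = 1.74e-06), and its partner Npc1 from 87.8 to 63.1 CPM (-0.48). Abca1, the cholesterol exporter induced by sterols, rose from 193 to 291 CPM (0.59 ± 0.18, adjusted p = 0.0206) in fl cells, and with AF10 deleted its change was 0.33 (adjusted p = 0.147). Of 22 fatty acid oxidation genes, 9 rose and 4 fell in fl cells, with a median log2 change of 0.25. In AF10-deleted cells 12 rose and 4 fell, with a median of 0.26. Over all genes tested, 25.7% rose and 26.3% fell in fl cells, and 27.5% rose and 27.5% fell in AF10-deleted cells. Cpt2, of the carnitine shuttle, rose from 41.5 to 68.6 CPM (0.72), Dci from 23.8 to 36.7 (0.62) and Echs1 from 68.5 to 87.0 (0.34). Ppargc1a, a coactivator of mitochondrial genes, fell from 5.47 to 1.06 CPM (-2.36). Among 16 genes of glycerolipid synthesis and storage 3 rose and 6 fell. Pnpla2, the lipase that opens stored fat, rose by 0.88 and Plin2, which coats lipid droplets, by 0.68, while the acyltransferase Agpat6 fell by 0.63. In AF10-deleted cells the lists gave 0 risen and 3 fallen for other sterol genes, 0 and 6 for SREBP processing, 3 and 5 for other fatty acid synthesis, 3 and 1 for NADPH supply, 1 and 5 for sterol export, and 3 and 5 for glycerolipids.

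The 2 MEF replicates differed in these genes, and the day 4 replicates did not do so in the same way. In MEF_fl 32 of the 33 genes were higher in replicate 1, with a median difference of 0.42 on the log2 scale (a ratio of 1.34), and in MEF_creAF10 all 33 were, with a median of 0.44 (1.35). Over all genes tested 50.5% and 50.2% were higher in replicate 1. A difference of more than 1.25-fold towards replicate 1 was seen in 23 genes (69.7%) in MEF_fl and 22 (66.7%) in MEF_creAF10, against 16.8% and 17.5% of all genes. The 2 MEF groups share their cell sources, so they are not independent. On day 4 the number higher in replicate 1 was 14 in Day4_fl_DMSO, 22 in Day4_fl_SGC, 11 in Day4_creAF10_DMSO and 24 in Day4_creAF10_SGC, with medians of -0.03, 0.06, -0.06 and 0.07. Cyp51 shows it: 282 and 190.3 CPM in MEF_fl against 82.4 and 81.0 in Day4_fl_DMSO. The fibroblast marker sum was also higher in MEF replicate 1, 67227 against 49846 CPM in MEF_fl and 61448 against 49643 in MEF_creAF10. The 12 markers did not move alike: in MEF_fl Dcn was at 1516 against 467 CPM and Thy1 at 448 against 111.0, Prrx1 at 862 against 839.8 and Fn1 at 7858 against 7430.3, and Vim, at 4347 against 5272, and Twist1, at 139.5 against 191, were lower in replicate 1. The sum of the adipocyte markers was lower in replicate 1, 43.2 against 72.8 CPM in MEF_fl. The part of cell makeup in this difference was not tested, and with 1 library per source and group it has no replicate check.

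**Figure D3:**
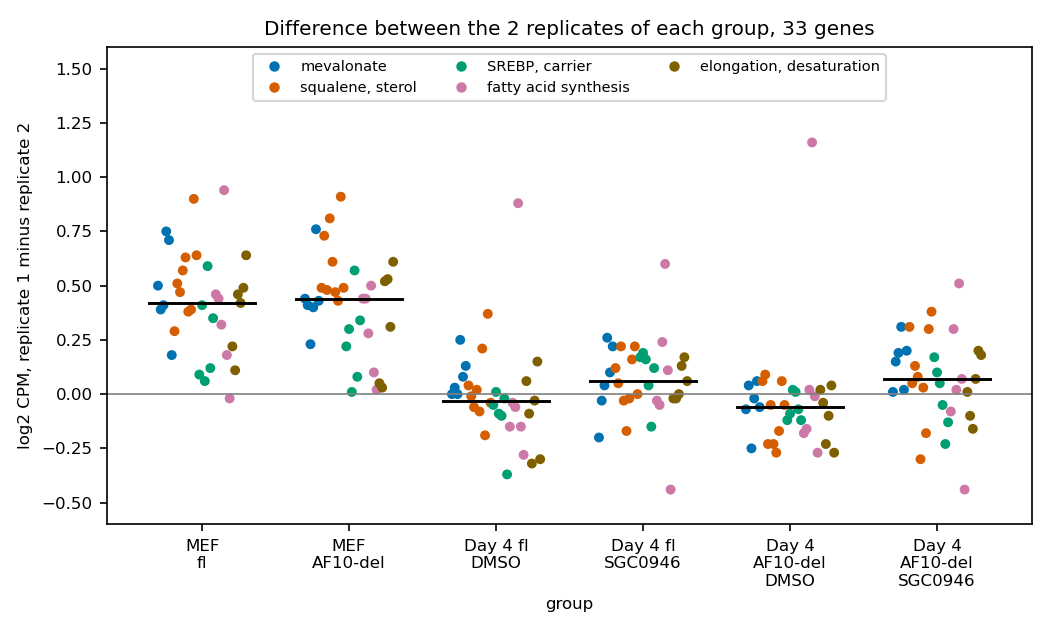
Each point is one of the 33 genes, plotted as log2 CPM in replicate 1 minus replicate 2 for each of the 6 groups, with colour for the role and a black line at the median. The medians lie at 0.42 and 0.44 in the MEF groups and between -0.06 and 0.07 in the day 4 groups; the highest point is Acacb in 5 of the 6 groups and Ebp in MEF_creAF10.

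By edgeR without pairing, few of these genes, and few of all genes tested, were called for DOT1L inhibition on day 4. In fl cells, SGC0946 against DMSO, 1 of the 33 fell (Elovl6) and 0 rose, with a median log2 change of -0.09, beside -0.01 over all genes. Of all 13936 genes tested 32 fell (0.23%) and 123 rose. In the fit that pairs libraries of the same source, the paired fit, 4 fell (Elovl6, Acaca, Me1 and Acat2) and 0 rose. Of all genes 990 fell (7.1%) and 1480 rose in that fit. Elovl6 went from 84.7 and 90.2 CPM in DMSO to 66.9 and 67.9 in SGC0946, with no overlap. This was a log2 change of -0.38 ± 0.072 (edgeR, adjusted p = 0.0411; 0.000227 in the paired fit). The call was lost without any 1 of the 8 day 4 libraries, where the log2 change was -0.42 to -0.34 and the adjusted p reached 0.294. Acaca went from 85.8 and 89.7 to 77.2 and 65.4 CPM, a change of -0.30 (adjusted p = 0.341, 0.00415 paired). Acat2 went from 49.2 and 49.1 to 38.4 and 44.1 CPM, a change of -0.25 (adjusted p = 0.607, 0.0253 paired). Both were lower in each source, as were 34.3% of all genes, and their groups did not overlap, as in 47.5% of all genes. Me1 went from 90.4 and 109.5 to 73.5 and 99.4 CPM, overlapping, with paired adjusted p = 0.0301 (without pairing 0.696). Over the 33 genes the changes lay between -0.38 and 0.35 on the log2 scale.

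In AF10-deleted cells SGC0946 changed 0 of the 33 by edgeR without pairing and by DESeq2, and each gave 1 gene an unadjusted p below 0.05. The paired fit gave 4 of the 33 an unadjusted p below 0.05, beside 2864 of all 13936 genes. By edgeR without pairing 0 of all genes (0.0%) were called lower and 1 higher. DESeq2 called 15 lower and 32 higher of the 17598 genes in its fit. The paired fit called 1 as lower, Elovl6, and 0 as higher, against 344 (2.47%) and 736 of all genes. Elovl6 went from 78.2 and 80.5 CPM in DMSO to 60.6 and 65.2 in SGC0946, a log2 change of -0.34 ± 0.072 (adjusted p = 0.253; paired 0.00223). Acaca, at 75.1 and 74.0 against 68.9 and 68.1 CPM, changed by -0.12 (paired adjusted p = 0.375). The sterol enzymes stayed between -0.24 and 0.05 on the log2 scale, none of them called. Other markers moved with SGC0946 as well. In fl cells the epithelial sum was 34.3 and 23.1 CPM in DMSO and 86.4 and 73.3 in SGC0946, and the adipocyte sum 38.0 and 46.1 against 73.0 and 76.0, of which Fabp4 made 10.7 and 11.6 against 30.3 and 28.9. In AF10-deleted cells the epithelial sum was 54.7 and 39.8 against 88.8 and 73.9 CPM, and the adipocyte sum 44.1 and 61.1 against 65.3 and 72.5. Their part in the lower Elovl6 was not tested. The SGC0946 effect on the 33 genes did not pass a test of its difference between genotypes: 0 were called by edgeR (0.0% of all genes), 0 by DESeq2 and 0 in the paired fit (0.395% of all genes), and 0 had an unadjusted p below 0.05 with either edgeR without pairing or DESeq2. For this difference the paired fit gave 1 of the 33 an unadjusted p below 0.05, beside 1445 of all 13936 genes.

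By edgeR without pairing, AF10 deletion gave no calls among these genes or among all genes tested. In MEFs 0 of 33 were called by edgeR without pairing (0.0% of all genes), by DESeq2 or in the paired fit (0.962% of all genes), and 0 had an unadjusted p under 0.05 by edgeR without pairing or by DESeq2. The paired fit gave 1 of the 33 an unadjusted p under 0.05, beside 968 of all 13936 genes. The log2 changes of the 33 were -0.13 to 0.24 with a median of 0.00, the highest being Fdps at 151 and 133 CPM in MEF_fl and 193.5 and 144 in MEF_creAF10. On day 4 in DMSO 0 of 33 were called without pairing by edgeR (0.0% of all genes) or DESeq2, and each gave 1 gene an unadjusted p below 0.05. The paired fit gave 9 of the 33 an unadjusted p below 0.05, beside 2943 of all 13936 genes. The paired fit called 2 as higher, Fdps and Sqle (3.37% of all genes higher), and 1 as lower, Acaca (3.37% lower). Fdps went from 64.0 and 58.3 CPM in fl cells to 74.9 and 78.2 in AF10-deleted cells (log2 change 0.32, adjusted p = 0.699, paired 0.0108). Sqle went from 55.8 and 56.2 to 69.1 and 65.0 CPM (0.26, adjusted p = 0.899, paired 0.0317). Acaca went from 85.8 and 89.7 to 75.1 and 74.0 CPM (-0.23, adjusted p = 0.748, paired 0.0496). In each of the 3 the groups did not overlap, which held for 13 of the 33 genes (39.4%) and 40.4% of all genes. Epithelial markers differed here too, 34.3 and 23.1 CPM in fl cells against 54.7 and 39.8 in AF10-deleted cells, and their part was not tested. By role the median change was 0.07 in the mevalonate branch, 0.16 in the sterol branch, -0.06 in the SREBP regulators and carrier, -0.12 in the malonyl-CoA group and -0.07 in elongases and desaturases. The first 2 medians were -0.01 and 0.01 within replicate 1 and 0.15 and 0.21 within replicate 2.

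In SGC0946 AF10 deletion gave 0 calls among the 33 by edgeR without pairing (0.0% of all genes), by DESeq2 and in the paired fit (0.172% of all genes), and neither edgeR without pairing nor DESeq2 gave any an unadjusted p below 0.05 (0 in each). The paired fit gave 2 of the 33 an unadjusted p below 0.05, beside 1081 of all 13936 genes. The log2 change was positive in 22 of the 33 genes and in 6978 of all 13936. By role it was positive in 6 of 6 genes of the mevalonate branch, at 0.09 to 0.17. In the sterol branch it was positive in 9 of 9, at 0.06 to 0.17. In both sources it was positive in 6 and 7 of these, beside 4011 of all 13936 genes. The groups did not overlap in 3 of 6 and 3 of 9, beside 28.7% of all genes. The change was positive in 1 of 6 SREBP regulators and carrier and in 2 of 6 of the malonyl-CoA group. Among elongases and desaturases it was positive in 4 of 6.

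**Figure D4:**
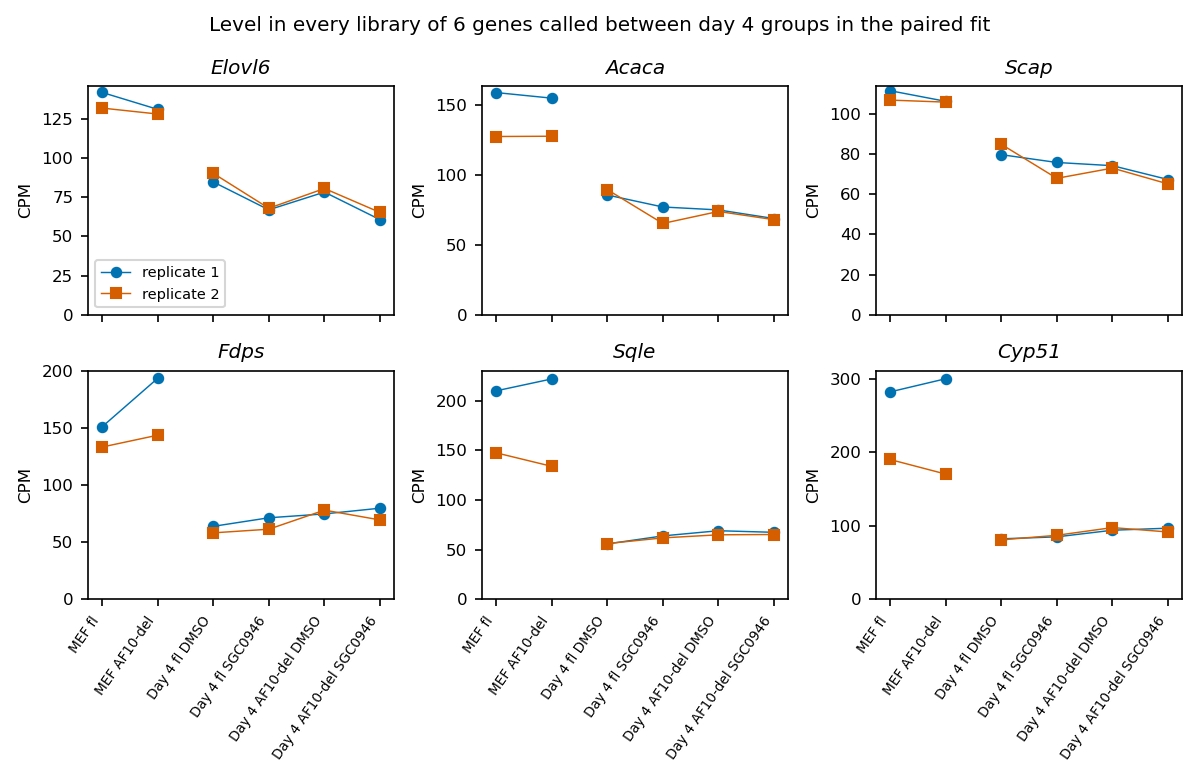
CPM in each of the 12 libraries for the 6 genes called in the paired fit between AF10-deleted cells in SGC0946 and fl cells in DMSO, with circles for replicate 1 and squares for replicate 2; lines join libraries of the same replicate number within MEFs and within day 4. Elovl6, Acaca and Scap step down from Day4_fl_DMSO to Day4_creAF10_SGC, and Fdps, Sqle and Cyp51 step up by less than their distance from the MEF libraries.

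Cells with both AF10 deletion and SGC0946, against fl cells in DMSO, had the lowest mean Elovl6 level of the 6 groups. By edgeR without pairing 1 of the 33 was lower, Elovl6, and 0 higher, against 75 (0.538%) and 179 of all 13936 genes. Elovl6 was at 84.7 and 90.2 CPM in Day4_fl_DMSO and 60.6 and 65.2 in Day4_creAF10_SGC, a log2 change of -0.48 ± 0.072 (adjusted p = 0.0124). It was lower in both sources, by 0.48 and 0.47. Without any 1 of those 4 libraries the call was lost, with an adjusted p of up to 0.13 and a log2 change of -0.53 to -0.43. The paired fit called 3 as lower, Elovl6, Acaca and Scap (9.25% of all genes lower), and 3 as higher, Fdps, Sqle and Cyp51 (12.3% higher). Acaca was at 85.8 and 89.7 against 68.9 and 68.1 CPM (-0.36, paired adjusted p = 0.000631), and Scap at 79.8 and 85.0 against 67.4 and 65.2 (-0.31, paired adjusted p = 0.00185). Without pairing their adjusted p was 0.206 and 0.0678. DESeq2 called Elovl6 and Scap, both lower, beside 184 lower of the 17598 genes in its fit. Fdps was at 64.0 and 58.3 against 79.9 and 69.6 CPM (0.29), Sqle at 55.8 and 56.2 against 67.5 and 65.3 (0.25), and Cyp51 at 82.4 and 81.0 against 96.9 and 91.7 (0.21). Their paired adjusted p was 0.00814, 0.0159 and 0.0402, and without pairing 0.37, 0.668 and 0.76. This comparison, the SGC0946 effect in fl cells and the AF10 effect in DMSO share the Day4_fl_DMSO libraries, so the same genes in several of them are not independent.

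Among the genes of the other lists, the paired fit called Nr1h3, the sterol-sensing receptor LXR alpha, as higher in doubly treated cells than in fl cells in DMSO, from 3.35 to 8.05 CPM (log2 change 1.25, paired adjusted p = 1.1e-05; without pairing 0.233). Of the 13 sterol export genes the paired fit called 3 there, all higher and all at low levels, beside 12.3% of all genes called higher. They were Nr1h3, Ch25h, which makes an oxysterol (1.29 to 3.04 CPM, 1.23), and Abcg1, a sterol exporter (1.12 to 2.29 CPM, 1.02). Without pairing 0 of the 13 were called. The median log2 change of the 13 was -0.04, and Abca1 went from 291 to 268 CPM. With SGC0946 the paired fit called Nr1h3 in fl cells (3.35 to 6.01 CPM, 0.83, paired adjusted p = 0.00299, without pairing 0.508) and in AF10-deleted cells (4.94 to 8.05 CPM, 0.70, paired 0.0121, without pairing 0.856). Fads3, a relative of the desaturases, rose from 66.9 to 96.1 CPM in doubly treated cells (0.52) and to 96.0 CPM with SGC0946 in fl cells (0.52), both by the paired fit. Without pairing the adjusted p of Fads3 was 0.176 in doubly treated cells and 0.224 with SGC0946 in fl cells. AF10 deletion in DMSO took it from 66.9 to 84.0 CPM (0.33, paired adjusted p = 0.0085, without pairing 0.737). Of the 23 other fatty acid synthesis genes the paired fit called 2 higher in doubly treated cells, beside 12.3% of all genes. With SGC0946 in fl cells it called 1 of them higher, beside 1480 of all 13936 genes. The change from MEFs to day 4 of the 33 genes did not pass a test of its difference between genotypes: edgeR without pairing called 0 (0.0% of all genes), DESeq2 0 and the paired fit 0 (1.16% of all genes), and 0 had an unadjusted p below 0.05 with either edgeR without pairing or DESeq2. For this difference the paired fit gave 3 of the 33 an unadjusted p below 0.05, beside 1835 of all 13936 genes.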

How the data were processed

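Polyadenylated RNA was made into libraries with a TruSeq kit that does not mark strand, per the labels' protocols, so overlapping genes on opposite strands cannot be told apart. Per the submitters' processing notes, RSEM and Bowtie assigned reads to RefSeq genes (build mm9); their versions and options are not given in the sources used here. The deposited files hold RSEM expected counts and TPM values per gene, per the file headers. RSEM divides reads that match several genes, and 32 of the 33 genes had counts that were not whole in at least 1 library. The expected counts were rounded, genes were kept with edgeR's filterByExpr, and 1 edgeR 4.0.16 fit (R 4.3.3, TMM, quasi-likelihood test with robust dispersions) over the 12 libraries had a term for each of 6 groups. A gene was called at a Benjamini-Hochberg adjusted p under 0.05 over 13936 genes, and CPM values use TMM-scaled totals. Totals were 14602536 to 22800753 counts per library.

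Replicate numbers pair the libraries: deviations from group means correlated at 0.286 to 0.737 between same-numbered libraries in all 15 pairs of groups, 0.413 to 0.737 within a stage and 0.286 to 0.34 across stages. Y-linked counts were 4035 to 4780 in each replicate 1 and 8 to 52 in each replicate 2, so the numbers mark 2 sources of cells of different sex, which the labels do not describe. Without a block, p-values measure the spread between these 2 sources, not between many animals. In the paired fit the steady difference between the sources within a stage is taken out. Its p-values measure only the spread that is left. The paired fit has a block for the replicate number within MEFs and within day 4. For day 4 against MEFs it takes out disagreement between sources, so the fit without it, the plain replicate block and DESeq2 are used there. The difference of that change between genotypes is also given with the paired fit. Alternatives were DESeq2 1.42.0, RLE scaling, no filter, both blocks, leaving out each library, and deposited TPM for levels. The genes, lists, marker lists and the rule for named genes (members called in any comparison, largest change first, and at most 6 called genes per other list) were chosen with earlier results of these data known. A few genes of the other lists are counted but not reported by name here.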

Additional observations from a re-analysis of the deposited data

How the results depend on the processing

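Without pairing, 28 of the 33 genes were called for day 4 against MEFs in each genotype, and leaving out 1 library gave 23 to 29 in fl cells and 23 to 28 in AF10-deleted cells. With the replicate block per stage the call counts within day 4 grew: from 0 to 3 for AF10 deletion in DMSO, from 0 to 1 for SGC0946 in AF10-deleted cells, from 1 to 4 for SGC0946 in fl cells, and from 1 to 6 for AF10 deletion with SGC0946 against fl cells in DMSO. For the last, DESeq2 gave 2 and the replicate block over all libraries 3. Leaving out 1 library gave 0 to 1 for this comparison and 0 to 1 for SGC0946 in fl cells. The counts of 0 for AF10 deletion in MEFs, for AF10 deletion in SGC0946 and for the 2 differences between genotypes were 0 under every alternative run. RLE scaling and no filter moved no count by more than 1.5 times, and scaling moved the median of all genes by under 0.1 on the log2 scale. With a replicate block, no other count moved by over 1.5 times. No called gene changed direction under any alternative. For day 4 against MEFs, the uncalled Acacb, Scd1 and Fads1 did so when 1 library was left out. With 2 sources, spread among animals cannot be judged, and the differences of Fdps, Sqle and Cyp51 between day 4 groups were called only with pairing.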
